A study of Mus musculus with 6 samples.

Results

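Adenylyl cyclases are the enzymes that make cyclic AMP (cAMP) from ATP. The family members described here are the membrane-bound isoforms, taken by name as Adcy1 to Adcy9, which are 9 of the 49568 gene names listed in each sample. The RNA-Seq libraries came from pools of 15 neurons, taken from preBötzinger complex (preBötC) slices of postnatal day 2 mice, with 3 samples of Dbx1-derived neurons (Dbx1) and 3 of neurons without the label (non-Dbx1), each from a different animal. All animals carried Dbx1CreERT2 and Rosa26tdTomato. Dbx1 neurons were recognised by tdTomato fluorescence, which depends on a Cre recombinase that tamoxifen activates, and non-Dbx1 neurons by the lack of it, so that a Dbx1-derived neuron without recombination would be counted as non-Dbx1. Dbx1 itself, which is transcribed in the progenitors, was listed at 0 in 6 of 6 samples, and so did not check the labels. A value of 0 allows a level of up to 0.222 RPKM there, that of 3 reads.

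Membrane-bound adenylyl cyclases are switched on by the stimulatory G proteins Gs and Golf, and several of them are held back by inhibitory G proteins, through which opioid receptors act. The isoforms differ in how calcium reaches them. Calmodulin activates Adcy1 and Adcy8 when calcium rises, Adcy3 responds to calmodulin only under some conditions, calcium itself inhibits Adcy5 and Adcy6, and Adcy2, Adcy4 and Adcy7 are largely insensitive to it. Adcy9 is reported to be inhibited by the calcium-dependent phosphatase calcineurin. cAMP then acts through protein kinase A, the exchange factors Epac1 and Epac2 and cyclic nucleotide-gated channels, and phosphodiesterases remove it. In the preBötC, raising cAMP is known to increase the excitability of the inspiratory network.

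RefSeq promoter windows on GRCm38.p6, from 250 bases before to 50 after a start site, were found for 7 of the 9 members and not for Adcy6 and Adcy8. The windows of 4 members are printed 5′ to 3′ on the strand of the gene. Adcy2 was the member with the highest level and Adcy4 the one with the lowest, and Adcy5 and Adcy9 were the members whose groups did not overlap. They lie at chr13:68999492-68999791 (minus strand) for Adcy2, chr16:35154614-35154913 (plus strand) for Adcy5, chr16:4420449-4420748 (minus strand) for Adcy9 and chr14:55784023-55784322 (minus strand) for Adcy4. Capitals mark the GC box GGGCGG and the CREB-site core TGACG, each searched on both strands.
Adcy2: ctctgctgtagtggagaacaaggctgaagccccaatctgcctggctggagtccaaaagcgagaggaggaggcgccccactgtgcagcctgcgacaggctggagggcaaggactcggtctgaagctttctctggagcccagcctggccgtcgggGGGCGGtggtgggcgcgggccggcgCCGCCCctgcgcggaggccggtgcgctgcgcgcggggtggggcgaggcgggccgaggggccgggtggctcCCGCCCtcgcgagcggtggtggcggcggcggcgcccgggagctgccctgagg
Adcy5: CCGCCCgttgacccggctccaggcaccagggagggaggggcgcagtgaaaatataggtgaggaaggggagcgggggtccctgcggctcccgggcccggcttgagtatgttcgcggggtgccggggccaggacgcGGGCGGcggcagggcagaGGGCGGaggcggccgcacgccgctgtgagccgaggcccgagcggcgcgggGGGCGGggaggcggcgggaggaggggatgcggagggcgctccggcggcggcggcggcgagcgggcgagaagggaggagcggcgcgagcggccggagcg
Adcy9: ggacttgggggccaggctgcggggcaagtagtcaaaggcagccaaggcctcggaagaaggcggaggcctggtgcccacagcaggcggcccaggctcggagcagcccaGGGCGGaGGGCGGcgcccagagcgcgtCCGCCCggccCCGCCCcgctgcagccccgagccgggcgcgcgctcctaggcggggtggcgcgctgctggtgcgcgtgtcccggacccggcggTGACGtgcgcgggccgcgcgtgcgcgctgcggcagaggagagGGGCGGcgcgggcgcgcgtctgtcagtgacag
Adcy4: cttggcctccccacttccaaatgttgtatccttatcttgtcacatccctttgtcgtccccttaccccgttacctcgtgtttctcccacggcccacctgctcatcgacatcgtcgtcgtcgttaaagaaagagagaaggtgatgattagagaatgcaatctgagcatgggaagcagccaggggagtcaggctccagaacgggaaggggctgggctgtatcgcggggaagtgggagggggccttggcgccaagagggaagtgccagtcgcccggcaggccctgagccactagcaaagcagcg

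The windows of Adcy2, Adcy5 and Adcy9 were rich in G and C, and that of Adcy4 was less so. Their GC content was 75.0% in Adcy2, 79.0% in Adcy5, 78.3% in Adcy9 and 58.0% in Adcy4, beside a median of 52.7% over all 32851 windows. The GC box occurred 3 times in Adcy2, 4 times in Adcy5, 5 times in Adcy9 and 0 times in Adcy4, and 35.7% of all windows held it. Adcy1, the member with the second highest level, had 74.0% GC and 5 GC boxes in its window. Adcy7, above 0 in all 6 samples, had windows with 54.7%, 57.0% and 55.7% GC, below that of Adcy4. They held 0, 0 and 1 GC boxes. The windows of Adcy3 had 68.7% and 56.0% GC, with 1 and 0 GC boxes. TGACG occurred 1 time in Adcy9 and 1 time in the first window of Adcy7, and 20.8% of all windows held it. The full CREB site TGACGTCA, which contains TGACG and its reverse complement, was found in 0 of the 10 windows of the 7 members, and 1.79% of all windows held it. These matches describe the letters of the windows only.

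RPKM is the number of reads scaled to exon length and to the total reads on genes, so levels were compared between members per length. Between 6464675 and 9432958 reads per sample lay on genes, a total read off the smallest increments of the deposited values. The 6 neuron markers were above 0 in every sample and summed to between 994 and 1708 in Dbx1 samples and between 993 and 1380 in non-Dbx1 samples (RPKM). Astrocyte markers summed to between 30.3 and 61.1 in Dbx1 and between 52.2 and 71.2 in non-Dbx1 samples, and oligodendrocyte-lineage markers to between 19.8 and 73.6 and between 46.2 and 458. Hemoglobin genes and Alas2, markers of red blood cells, summed to between 90.3 and 507 in Dbx1 and between 733 and 14058 in non-Dbx1 samples, without overlap.

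Adcy2 dominated the family. Its mean level was 35.9 ± 10.8 RPKM (SD, n = 6), it was the highest member in 6 of 6 samples, and it stood at the 94.7th percentile of the genes with reads. It held between 45.5% and 64.5% of the summed RPKM of the 9 members. Adcy1 followed with 11.5 ± 2.57 RPKM and came second in 5 of 6 samples. In log2(RPKM + 1), Adcy2 exceeded Adcy1 by 1.53 ± 0.53 (SD, n = 6), in every sample, and the ranges of both genes in RPKM were separate. Adcy1 exceeded Adcy5 by 0.88 ± 0.85 on the same scale, also in 6 of 6 samples.

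**Figure D1:**
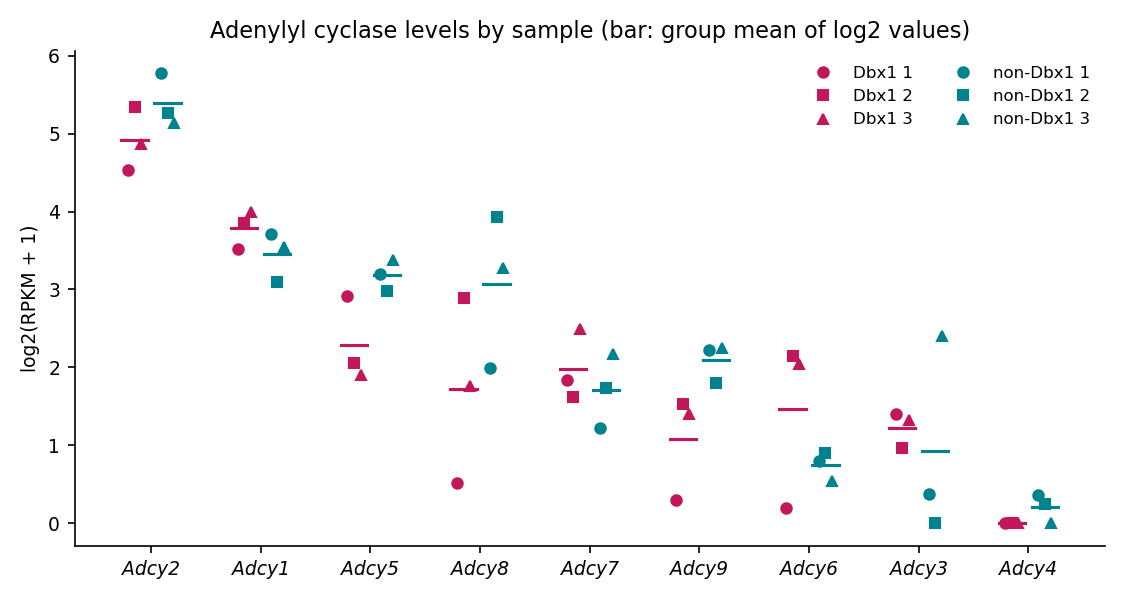
Levels of the 9 adenylyl cyclases in log2(RPKM + 1), ordered by mean RPKM, with 1 point per sample (magenta, 3 Dbx1 samples; teal, 3 non-Dbx1 samples; the symbol gives the replicate number) and bars at group means of the log2 values. Adcy2 lies above the other members in all 6 samples, Adcy5 and Adcy9 are lower in every Dbx1 sample than in any non-Dbx1 sample, and Adcy8, Adcy6 and Adcy3 spread widely within a group.

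Below Adcy1 the order was loose. Adcy5 averaged 6.15 ± 2.68 RPKM, Adcy8 5.86 ± 5.07, Adcy7 2.74 ± 1.16, Adcy9 2.28 ± 1.34, Adcy6 1.47 ± 1.44, Adcy3 1.45 ± 1.54 and Adcy4 0.0788 ± 0.126 (SD, n = 6). From Adcy5 downwards, no member exceeded the next by more than the SD of their difference over samples. Adcy5 and Adcy8 differed by 0.35 ± 1.28 in log2(RPKM + 1), and Adcy6 and Adcy3 by 0.03 ± 1.25. Adcy3 exceeded Adcy4 by 0.98 ± 0.98, in 5 of 6 samples.

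The length used for RPKM mattered to this order. Reads and lengths were recovered from the RPKM values. A length from the annotation was taken where it gave whole reads, as for Adcy2 and Adcy9. For the other members the smallest length that gave whole reads was taken. True reads, and with them lengths, can be a multiple, and a floor then lies lower than printed. So read, the authors' exon length equalled the merged exons of the GENCODE vM21 annotation for Adcy2, was 2.27 times the merged length for Adcy3 and 1.93 times for Adcy9, and was 0.617 times for Adcy8. With the same reads and merged lengths, mean levels became 35.9 for Adcy2, 15.3 for Adcy1, 4.87 for Adcy7, 4.39 for Adcy9, 3.61 for Adcy8, 3.29 for Adcy3, 1.30 for Adcy6 and 0.0636 for Adcy4 (RPKM). Adcy2, Adcy1, Adcy5 and Adcy4 kept their places and the other 5 members did not. For 3 members, Adcy4, Adcy6 and Adcy8, a length 2 times the recovered one lies nearer to the summed exons of the annotation. With doubled reads for these, an alternative chosen after seeing the data, the merged length gave 7.23 for Adcy8, 2.60 for Adcy6 and 0.127 for Adcy4 (RPKM), so that the level of Adcy8 rose with the merged length instead of falling, and 5 of the 9 members kept their places. Adcy2 and Adcy1 led the order and Adcy4 was last in each case. Differences between the groups within a gene do not depend on this length, apart from the weight of the pseudocount.

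**Figure D2:**
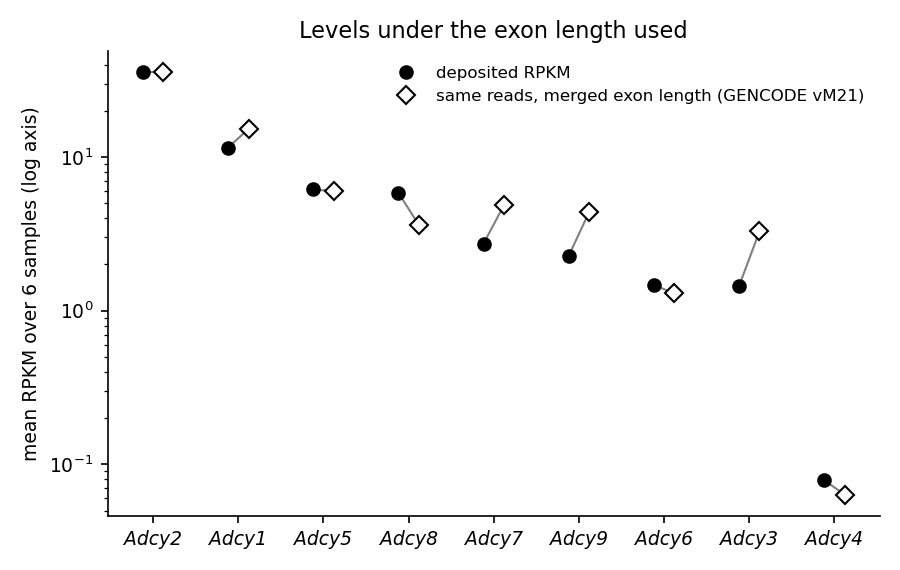
Mean RPKM over 6 samples of each adenylyl cyclase (log axis) as deposited (filled circles) and from the same reads with the merged exon length (open diamonds), with reads recovered as whole numbers that fit. Adcy2 is at 35.9 under both and Adcy9 rises from 2.28 to 4.39, whereas the fall of Adcy8 from 5.86 to 3.61 becomes a rise to 7.23 if its reads are doubled.

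Summed by calcium class, the insensitive isoforms held the largest share, between 50.2% and 66.5% of the 9-gene sum, followed by the calcium-stimulated isoforms with 18.1% to 30.3% and the calcium-inhibited isoforms with 9.30% to 15.1%. Adcy1 and Adcy8 together reached 10.9, 19.8 and 17.3 RPKM in Dbx1 samples 1 to 3 and 15.1, 21.8 and 19.3 in non-Dbx1 samples 1 to 3. These groups overlapped, at 16.0 ± 4.60 and 18.7 ± 3.41 (SD, n = 3 each). Adcy5 and Adcy6 together reached 6.70, 6.59 and 5.88 RPKM in Dbx1 and 8.89, 7.80 and 9.87 in non-Dbx1 samples. Every Dbx1 sample was below every non-Dbx1 sample here, at 6.39 ± 0.445 and 8.85 ± 1.04 (SD, n = 3 each). Of the 17614 single genes tested below, 5.24% were also lower in Dbx1 without overlap. With merged lengths alone the groups stayed separate, at 6.52, 6.12 and 5.46 in Dbx1 and 8.61, 7.53 and 9.59 in non-Dbx1 samples. With merged lengths and the doubled reads of Adcy6, the groups overlapped, at 6.65, 9.18 and 8.23 in Dbx1 and 9.27, 8.30 and 9.99 in non-Dbx1 samples. The sum of all 9 members was 44.2, 70.9 and 59.1 RPKM in Dbx1 and 83.3, 72.0 and 74.8 in non-Dbx1 samples, without overlap in the deposited values. With merged lengths these groups overlapped, since Dbx1 sample 2 then reached 76.9 and non-Dbx1 sample 2 72.8. In pools of neurons, fewer cells that express a gene and less RNA per cell cannot be told apart.

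**Figure D3:**
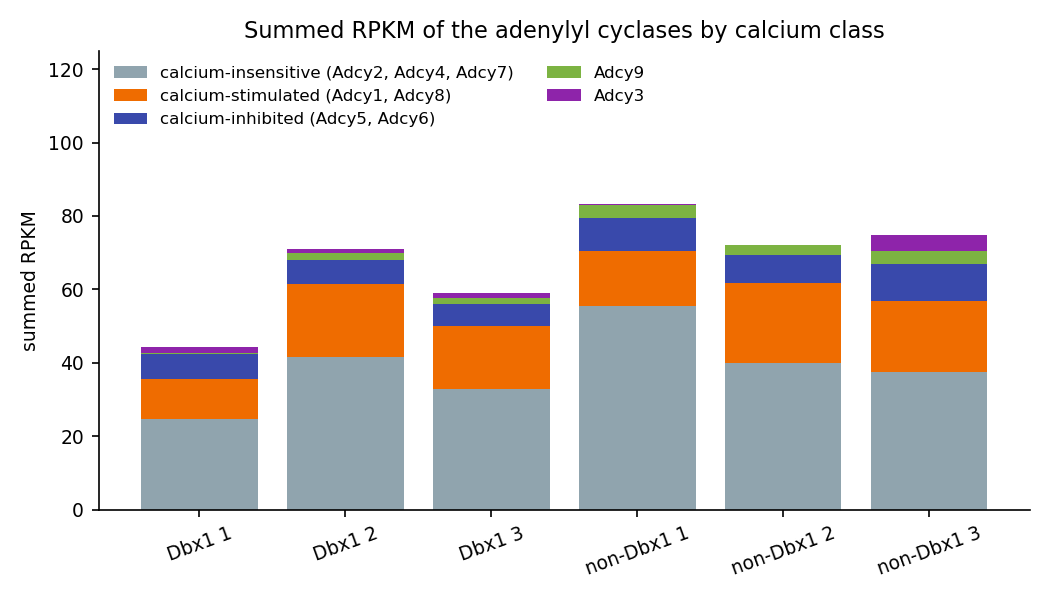
Summed RPKM of the adenylyl cyclases in each of the 6 samples, stacked by calcium class. The calcium-insensitive isoforms form the largest block in every sample, and the totals run from 44.2 in Dbx1 sample 1 to 83.3 in non-Dbx1 sample 1.

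The ratio of calcium-stimulated to calcium-inhibited isoforms did not separate the groups. It was 1.63, 3.01 and 2.94 in Dbx1 and 1.70, 2.80 and 1.96 in non-Dbx1 samples, with means of 2.53 ± 0.780 and 2.15 ± 0.576 (SD, n = 3 each). The make-up within a class varied far more than its sum. Adcy8 made up 3.90%, 32.2% and 13.9% of Adcy1 plus Adcy8 in Dbx1 samples and 19.8%, 65.3% and 44.9% in non-Dbx1 samples. Adcy6 made up 2.18%, 52.3% and 53.2% of Adcy5 plus Adcy6 in Dbx1 samples and 8.38%, 11.2% and 4.64% in non-Dbx1 samples. Thus Adcy6 was close to Adcy5 in deposited RPKM in Dbx1 samples 2 and 3 and far below it in the other 4 samples. Such shares compare different genes, so they shift with the exon length and the reads taken for each.

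Dbx1 and non-Dbx1 samples were then compared gene by gene, with limma over the 17614 genes that had RPKM above 0 in at least 3 samples. The fold change on the log2 scale (L2FC) is taken on log2(RPKM + 1), which understates changes of low genes, and is positive where Dbx1 exceeded non-Dbx1. Of the 9 members, 8 passed the filter, and in limma 0 of them had FDR under 0.1 or an unadjusted p under 0.05. Over all genes tested, 0.00568% had FDR under 0.1 and 5.2% had p under 0.05. With voom on the recovered reads, 0 members had p under 0.05. The groups did not overlap in 2 of the 8 members, Adcy5 and Adcy9, beside 10.6% of all genes tested, and both were lower in Dbx1, beside 5.24% of all genes. L2FC was above 0 in 4 members and below 0 in 4, with a median of -0.10 beside 0.0089 over all genes tested.

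**Figure D4:**
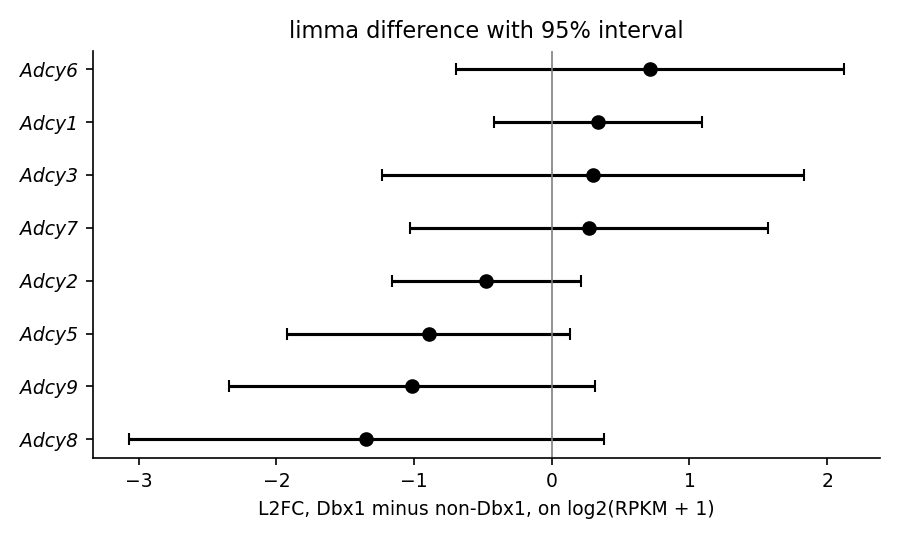
L2FC between 3 Dbx1 and 3 non-Dbx1 samples for the 8 adenylyl cyclases tested (points, limma on log2(RPKM + 1)) with 95% intervals (lines). All 8 intervals include 0, and that of Adcy8, from -3.07 to 0.38, is the widest.

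Of the calcium-stimulated isoforms, Adcy1 (ENSMUSG00000020431, chr11:7063489-7178506, GRCm38, plus strand) varied least of the members, with a coefficient of variation of 22.3% over 6 samples. Its level was 10.5, 13.4 and 14.9 RPKM in Dbx1 samples 1 to 3 and 12.1, 7.56 and 10.6 in non-Dbx1 samples 1 to 3, from 1074 to 1721 reads per sample. The groups overlapped, with an L2FC of 0.34 ± 0.33 (SE, 95% interval -0.42 to 1.09, limma FDR = 0.951). It ran from 0.16 without non-Dbx1 sample 2 to 0.47 without Dbx1 sample 1. Adcy1 is a neuronal isoform known for its part in synaptic plasticity and in the patterning of sensory maps.

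Adcy8 (ENSMUSG00000022376, chr15:64697084-64922296, minus strand), the other calmodulin-activated isoform, varied most in absolute terms apart from Adcy2. Its level was 0.425, 6.39 and 2.40 RPKM in Dbx1 and 2.98, 14.3 and 8.68 in non-Dbx1 samples. Dbx1 sample 1 had 17 reads and non-Dbx1 sample 2 had 614. The means were 3.07 ± 3.04 and 8.64 ± 5.64 (SD, n = 3 each), and the groups overlapped because Dbx1 sample 2 exceeded non-Dbx1 sample 1. The L2FC of -1.35 ± 0.76 (SE) had a 95% interval from -3.07 to 0.38 and did not pass the test (limma FDR = 0.924). Leaving out 1 sample at a time moved it between -0.74, without Dbx1 sample 1, and -1.93, without Dbx1 sample 2.

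Adcy3 (ENSMUSG00000020654, chr12:4133103-4213525, plus strand), known as the isoform of olfactory neurons and neuronal primary cilia, was even across Dbx1 samples and uneven across non-Dbx1 samples. It reached 1.63, 0.955 and 1.50 RPKM in Dbx1 and 0.294, 0 and 4.30 in non-Dbx1 samples. The value of 0 in non-Dbx1 sample 2 allows an RPKM of up to 0.0247, that of 3 reads, and the 4.30 of non-Dbx1 sample 3 came from 576 reads. The L2FC was 0.30 ± 0.67 (SE, 95% interval -1.23 to 1.83, limma FDR = 0.979), and it turned to -0.17 as the log2 ratio of the group means and to -0.16 without non-Dbx1 sample 2. It was 0.02 without non-Dbx1 sample 1 and 1.04 without non-Dbx1 sample 3. In GENCODE vM21, 22.1% of its exon bases lie under Cenpo on the opposite strand, and reads were counted without regard to strand, so reads of these genes cannot be told apart there.

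The calcium-inhibited isoforms differed in their pattern. Adcy5 (ENSMUSG00000022840, chr16:35154877-35305738, plus strand), the main isoform of the striatum, reached 6.55, 3.15 and 2.75 RPKM in Dbx1 and 8.15, 6.92 and 9.41 in non-Dbx1 samples. Every Dbx1 sample was below every non-Dbx1 sample, with means of 4.15 ± 2.09 and 8.16 ± 1.24 (SD, n = 3 each), although Dbx1 sample 1 and non-Dbx1 sample 2 lay close together. The exact two-sided permutation test gave p = 0.10, which is the lower limit in a design of this size. The L2FC was -0.89 ± 0.45 (SE, 95% interval -1.92 to 0.14, limma FDR = 0.913). The red blood cell marker sum was also higher in every non-Dbx1 sample than in any Dbx1 sample, as was each hemoglobin gene. Alas2 overlapped, at 0.648, 0.799 and 2.35 RPKM in Dbx1 and 112, 0.268 and 0.790 in non-Dbx1 samples. The part of red blood cells in the difference of Adcy5 and Adcy9 was not tested.

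Adcy6 (ENSMUSG00000022994, chr15:98589973-98610076, minus strand), a broadly expressed isoform that PKA and nitric oxide also inhibit, reached 0.146, 3.44 and 3.13 RPKM in Dbx1 and 0.746, 0.874 and 0.458 in non-Dbx1 samples. Dbx1 samples 2 and 3, with 156 and 131 reads, exceeded all 3 non-Dbx1 samples, whereas Dbx1 sample 1 had 7 reads and was the lowest of the 6. The L2FC was 0.71 ± 0.62 (SE, 95% interval -0.69 to 2.12, limma FDR = 0.951). It was 1.35 without Dbx1 sample 1 (limma FDR = 0.906), 0.37 without Dbx1 sample 2 and 0.42 without Dbx1 sample 3, so its size rested on these samples. In the annotation, 8.92% of the exon bases of Adcy6 lie under Gm29331 on the opposite strand.

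Among the insensitive isoforms, Adcy2 (ENSMUSG00000021536, chr13:68620043-68999541, minus strand), which the beta-gamma subunits of G proteins stimulate together with Gs, reached 22.2, 39.5 and 28.2 RPKM in Dbx1 and 53.8, 37.3 and 34.1 in non-Dbx1 samples, from 744 to 1464 reads. Dbx1 sample 1 was the lowest and non-Dbx1 sample 1 the highest, and the groups overlapped. The means were 30.0 ± 8.81 and 41.7 ± 10.6 (SD, n = 3 each), with an L2FC of -0.47 ± 0.30 (SE, 95% interval -1.16 to 0.21, limma FDR = 0.936). It was -0.29 without Dbx1 sample 1 and -0.28 without non-Dbx1 sample 1. The latter also held the highest sums of oligodendrocyte-lineage and red blood cell markers, 458 and 14058 RPKM, and their part in the difference was not tested. Of its exon bases, 4.49% lie under Gm35161 on the opposite strand.

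Adcy7 (ENSMUSG00000031659, chr8:88272403-88329962, plus strand), an isoform also prominent in immune cells, reached 2.56, 2.07 and 4.61 RPKM in Dbx1 and 1.33, 2.34 and 3.50 in non-Dbx1 samples. The groups overlapped, with an L2FC of 0.27 ± 0.57 (SE, 95% interval -1.03 to 1.57, limma FDR = 0.977). It was 0.02 without Dbx1 sample 3 or without non-Dbx1 sample 1, and 0.50 without non-Dbx1 sample 3. Microglial markers summed to 0.202, 2.63 and 10.4 RPKM in Dbx1 and 0.756, 10.8 and 13.3 in non-Dbx1 samples, with 5 of 6 markers above 0 in some sample of each group and Tmem119 at 0 in all 6. Within each group, the sample with the most Adcy7 was also the one with the highest microglial sum. C1qa made up most of that sum, at 7.46 RPKM in Dbx1 sample 3 and 11.8 in non-Dbx1 sample 3. The other markers were mixed. Aif1 and P2ry12 in Dbx1, and Cx3cr1, Csf1r and P2ry12 in non-Dbx1, were highest in another sample of the group. The part of microglia in Adcy7 was not tested.

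Adcy4 (ENSMUSG00000022220, chr14:55769057-55784095, minus strand), an isoform found in endothelium among other tissues, was close to absent. It was listed at 0 in all 3 Dbx1 samples and at 0.287, 0.186 and 0 RPKM in non-Dbx1 samples, from 13 reads in total. The values of 0 allow an RPKM of up to 0.114 in Dbx1 samples and 0.0842 in non-Dbx1 sample 3. With reads in 2 samples, it failed the filter and was not tested. Endothelial markers summed to 0.168, 0.595 and 1.03 RPKM in Dbx1 and 3.95, 72.2 and 0.0427 in non-Dbx1 samples, with 6 of 6 markers above 0 in each group. The sum was highest in the same 2 samples that held Adcy4 reads, as were Cldn5, Flt1, Tek and Kdr. Cldn5 alone gave 63.7 of the 72.2. Pecam1 was highest in Dbx1 sample 2, at 0.507, and Cdh5 in Dbx1 sample 3, at 0.927. The part of endothelial cells in the Adcy4 reads was not tested.

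Adcy9 (ENSMUSG00000005580, chr16:4287529-4420498, minus strand), which is poorly activated by forskolin, reached 0.226, 1.88 and 1.65 RPKM in Dbx1 and 3.66, 2.48 and 3.77 in non-Dbx1 samples. Every Dbx1 sample was below every non-Dbx1 sample, and Dbx1 sample 1 was far below the rest with 18 reads. The means were 1.25 ± 0.896 and 3.30 ± 0.711 (SD, n = 3 each), and the exact two-sided permutation test gave p = 0.10. The L2FC was -1.02 ± 0.58 (SE, 95% interval -2.35 to 0.32, limma FDR = 0.924). It was -0.62 without Dbx1 sample 1, which was the lowest sample for Adcy2, Adcy6, Adcy8 and Adcy9 alike. The authors found En1 but no Evx1 in this sample, and proposed that it may have taken in En1-expressing interneurons by accident. The bearing of this on the cyclases was not tested.

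The genes most like Adcy2 and Adcy5 across the 6 samples were sought among 13162 genes, by the root mean square difference of log2(RPKM + 1) after centring each gene. For Adcy2 they were Kmt5b (0.0608), Jph4 (0.0971) and Trim24 (0.0978). For Adcy5, the member with the smallest p, they were Zc3h7a (0.133), Gm7488 (0.163) and Pde9a (0.164).

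The rest of the cAMP pathway was read from lists of 58 genes, of which 57 passed the filter. In limma 0 of them had FDR under 0.1, and 2 had an unadjusted p under 0.05, Pde1a and Rapgef3, both higher in Dbx1, as were 2.73% of all genes tested at that p. The groups did not overlap in 4, with Pde1a, Rapgef3 and Akap13 higher in Dbx1, beside 5.35% of all genes tested, and Pde8a, named after its values were seen, lower, beside 5.24% of all genes. Pde8a was listed at 0 in all 3 Dbx1 samples and at 3.96, 0.023 and 0.251 RPKM in non-Dbx1 samples, from 130, 1 and 12 reads, so that the separation in non-Dbx1 sample 2 rests on 1 read and most reads came from non-Dbx1 sample 1, which had the oligodendrocyte-lineage sum of 458. L2FC was above 0 in 34 and below 0 in 23, with a median of 0.087. Of the genes that act upstream of the cyclases, Gnal, which encodes Golf, had the highest deposited RPKM of the stimulatory alpha subunits. It averaged 23.9 RPKM, with 6506 reads over the 6 samples. It reached 19.7, 9.82 and 25.5 RPKM in Dbx1 and 30.9, 23.1 and 34.4 in non-Dbx1 samples, with an L2FC of -0.73 ± 0.37 (SE, limma FDR = 0.917). Gnas, which encodes Gs and was looked up after its values were seen, averaged 3.36 RPKM from 3837 reads. The gap between Gnal and Gnas was wider in RPKM than in recovered reads, so its size depends on the exon lengths the authors used. Whether the order of Gnal and Gnas depends on these lengths too was not tested. Levels of the pathway genes are given as deposited only, without the merged lengths.

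**Figure D5:**
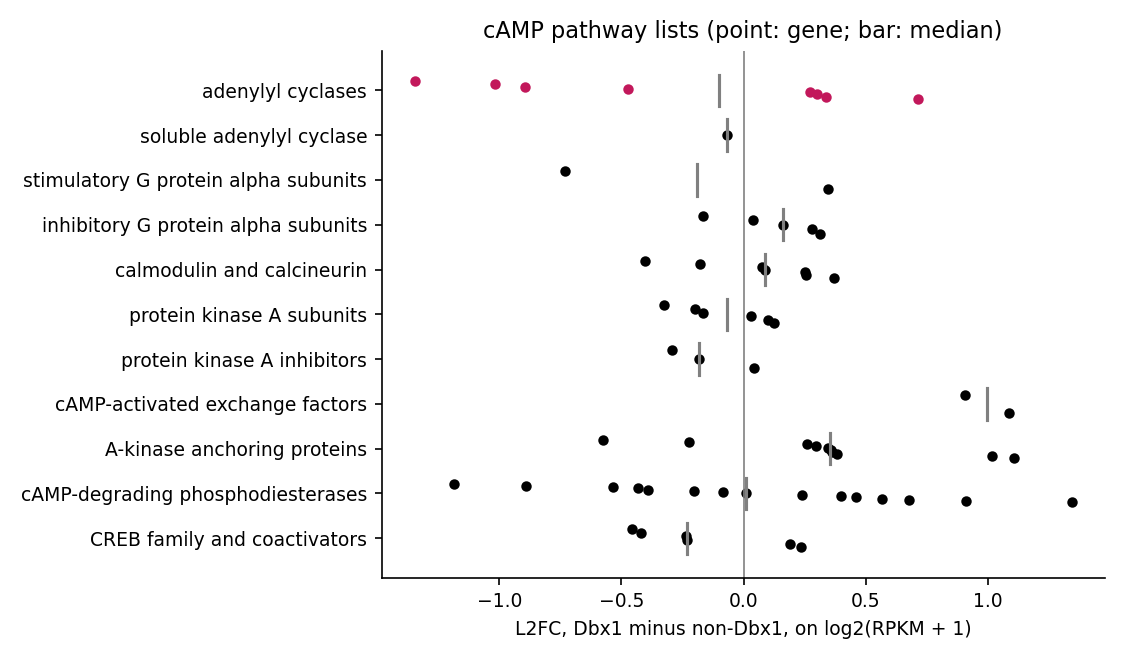
L2FC between Dbx1 and non-Dbx1 samples (x axis, on log2(RPKM + 1)) of the adenylyl cyclases (magenta) and of each gene tested in 10 lists of the cAMP pathway (black), with grey bars at list medians. The cyclases run from -1.35 to 0.71, and the 57 tested pathway genes from -1.18 to 1.34.

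The inhibitory alpha subunits were all above 0 in 6 of 6 samples. Gnai1 had the highest level, with a mean of 78.6 RPKM and an L2FC of 0.16 ± 0.28, and Gnai2, with the smallest p in its list, an L2FC of 0.31 ± 0.34 (SE, limma FDR = 0.958). Calmodulin transcripts were abundant, with Calm2 at 620.1 RPKM on average and an L2FC of 0.09 ± 0.28. The calcineurin subunit Ppp3cb averaged 19.6 RPKM, with an L2FC of -0.40 ± 0.32 (SE, limma FDR = 0.946). The soluble cyclase Adcy10, which bicarbonate and calcium activate, reached at most 0.412 RPKM, from 84 reads in total, with an L2FC of -0.07 ± 0.20.

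Downstream, the regulatory subunit Prkar1a of protein kinase A averaged 128.5 RPKM, with an L2FC of 0.10 ± 0.35, and Prkar2a 18.7 RPKM, with -0.33 ± 0.38. The kinase inhibitor Pkia averaged 136.1 RPKM and its paralogue Pkib 0.295 RPKM. Of the exchange factors, Rapgef4 (Epac2) reached 6.50, 7.01 and 11.7 RPKM in Dbx1 and 1.63, 2.52 and 7.63 in non-Dbx1 samples, which overlapped (L2FC 1.08 ± 0.56, SE, limma FDR = 0.919). Rapgef3 (Epac1) reached 1.52, 0.0483 and 1.51 RPKM in Dbx1 and 0, 0.00708 and 0.00642 in non-Dbx1 samples. These values came from 199, 6 and 174 reads in Dbx1 and 0, 1 and 1 in non-Dbx1 samples. The L2FC of Rapgef3 was 0.90 ± 0.37 (SE, limma FDR = 0.912). Its second Dbx1 sample was close to the non-Dbx1 samples, so the separation there rests on 6 reads.

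The phosphodiesterase Pde1a, which calmodulin activates as it does Adcy1 and Adcy8, reached 6.15, 9.70 and 5.81 RPKM in Dbx1 and 1.40, 3.16 and 2.20 in non-Dbx1 samples. All 3 Dbx1 samples were above all 3 non-Dbx1 samples, with an L2FC of 1.34 ± 0.50 (SE, 95% interval 0.21 to 2.48, limma FDR = 0.912). Its paralogue Pde1b had the highest level of the phosphodiesterases, at 36.1 RPKM on average, with overlapping groups and an L2FC of 0.24 ± 0.42. The anchoring protein gene Akap13 averaged 2.33 ± 0.509 RPKM in Dbx1 and 0.648 ± 0.290 in non-Dbx1 samples (SD, n = 3 each), with an L2FC of 1.02 ± 0.47 (SE, limma FDR = 0.912). Akap8 had the highest level of the anchoring proteins, at 44.2 RPKM on average and an L2FC of -0.58 ± 0.51. The CREB coactivator Crtc1 averaged 5.69 RPKM, with an L2FC of -0.46 ± 0.61, and Crem 0.417 RPKM, with 0.24 ± 0.30.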

How the data were processed

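The authors aligned reads with TopHat2 to mm10, counted them on genes with HTSeq, ignoring strand, and deposited RPKM, computed with summed exon lengths of an Ensembl annotation whose release is not given in the sources used here. The counts behind them are not used here. Reads per gene were recovered as whole numbers that yield the RPKM values (tolerance 0.001). The summed distinct exons of GENCODE vM21, overlaps counted again, were tried first, then the merged exons, then the smallest length that fitted. These gave the lengths of 13840, 39 and 13183 genes. Recovered lengths of 1342 of 4250 well-covered genes equalled the sum of distinct exons, the length tried first. Detection floors are 3 reads and, like intervals on reads, cover counting error only, since amplified cDNA reads are not independent molecules. Gene positions came from GENCODE vM21.

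The 3 Dbx1 and 3 non-Dbx1 samples, from 6 mice, were compared with limma 3.58.1 in R 4.3.3 (two-sided, mean-variance trend) on log2(RPKM + 1) over genes detected (RPKM above 0) in 3 or more samples, with Benjamini-Hochberg FDR over all of them and a threshold of 0.1, as the authors used in DESeq2 on counts. Single genes also had exact permutation tests. The alternatives were a pseudocount of 0.1, looser and stricter filters, size factors, quantile normalization, no trend, voom on recovered reads, a replicate block and each sample left out.

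All 9 members, Adcy10, and from each pathway list the gene with the highest mean RPKM and that with the smallest p are named, with the 3 genes nearest to Adcy2 and Adcy5 (mean RPKM of at least 1). The members and lists were chosen with earlier results of these data known. Python 3.11.15 served for the remaining computations (scipy 1.17.1, pandas 2.3.3, numpy 2.4.6).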

Additional observations from a re-analysis of the deposited data

How the results depend on the processing

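At FDR under 0.1, the genes called by the authors' DESeq2 on counts include Gata2, Htr1a, Hif1a, Trpc4, Syt10 and Pbx3. These are the ones named in the text of the paper, which does not state the full number of calls. Over all genes, limma here called 1 gene, which was no cyclase. Its fewer calls do not show that fewer genes differ. The limma count was 0 with a pseudocount of 0.1, with all genes above 0 in at least 1 sample, with voom and with the replicate block, and 3 without the trend. Leaving out 1 sample at a time gave 0 to 1 genes, with 0 without non-Dbx1 sample 3 and, without non-Dbx1 sample 2, a different gene that was higher in Dbx1. Of 111 alternative fits of the 8 cyclases tested, 110 kept their direction and stayed short of the threshold, and of 8 log2 ratios of mean RPKM, which have no test, 7 kept their direction. The exceptions were values of Adcy3 that turned negative, -0.17 as the log2 ratio of mean RPKM and -0.16 without non-Dbx1 replicate 2, whereas it was 1.04 without non-Dbx1 replicate 3. With voom the L2FC of Adcy3 was 2.88. An unadjusted limma p under 0.05 appeared for Adcy5 and Adcy9 without the trend and for Adcy5 and Adcy6 without Dbx1 sample 1. It also appeared for Adcy8 without Dbx1 sample 2 or non-Dbx1 sample 1, and for Adcy3 without non-Dbx1 sample 3. The lowest FDR over these was 0.776. Over all genes, 527 higher and 482 lower in Dbx1, of 17614, had such a p without the trend. The counts were 540 and 373 of 16643 without Dbx1 sample 1, and 354 and 314 of 16337 without Dbx1 sample 2. They were 455 and 480 of 16578 without non-Dbx1 sample 1, and 526 and 500 of 16786 without non-Dbx1 sample 3. In the order of levels, 4 of 9 members kept their place with merged exon lengths and 5 with doubled reads as well. With doubled reads, mean class sums were 20.9 in Dbx1 and 24.1 in non-Dbx1 samples for the calcium-stimulated isoforms and 8.02 in Dbx1 samples for the calcium-inhibited ones, and the mean of all 9 in non-Dbx1 samples was 83.3 with merged lengths and 89.3 with doubled reads too (RPKM, alternatives chosen after seeing the data). In the pathway lists, leaving out 1 sample gave 0 to 3 genes with p under 0.05, against 2 with all samples. There were 0 without Dbx1 sample 1 and 1 each without Dbx1 sample 2, non-Dbx1 sample 1 or non-Dbx1 sample 2. Counts over all genes were those above, with 535 higher and 386 lower of 16612 without Dbx1 sample 3. Without non-Dbx1 sample 2 they were 432 and 406 of 16509. The cause of these changes was not tested.

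Replicate numbers of the labels did not pair the samples, which came from 6 different mice. Deviations of same-numbered samples from their group means correlated at -0.11 to 0.025. The replicate block gave 0 called genes and, for Adcy8, a limma p of 0.041 and an FDR of 0.980. In that fit 440 genes higher and 379 lower in Dbx1, of 17614, had p under 0.05. With 3 samples a group, Adcy4 at 13 reads and Dbx1 sample 1 at 7 to 18 reads for Adcy6, Adcy8 and Adcy9 rest on few reads, and the wide intervals of L2FC leave room for differences in either direction in all 8 members tested.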
